A study of Caenorhabditis elegans with 6 samples.

Results

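The *haf* genes of *C. elegans* encode half-molecule ABC transporters, and 8 of them (*haf-1*, *haf-2*, *haf-3*, *haf-4*, *haf-6*, *haf-7*, *haf-8* and *haf-9*) were followed here in larvae with a deletion in the ETS transcription factor gene *ets-4*. The genes were taken by symbol, through the sequence name of each array probe, and the family was chosen because the *haf-6* signal was low in *ets-4(ok165)* larvae. The members were thus chosen by the ratios of the *ets-4(ok165)* arrays. All 8 had a probe among 18877 genes on the array, and 7 of them were among the 14768 genes with a signal well above background. For the members the *ets-4(ok165)* values are therefore given as a description with no test, and the *ets-4(uz1)* means are tested. Both strain comparisons may share wild-type controls, so the choice may also reach into the *ets-4(uz1)* ratios. The spread in that test was estimated over the arrays of both strains, and from the *ets-4(uz1)* arrays alone no member passed either (limma, adjusted p = 0.259 for *haf-6*).

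Late L4 larvae of the *ets-4(ok165)* strain and of the *ets-4(uz1)* strain were each compared with wild-type N2 larvae. In *ok165* the coding sequence of the PNT domain and of the DNA-binding ETS domain is deleted, while *uz1* has lost most of the ETS domain and keeps the PNT domain. Both mutant strains had been outcrossed to N2, RNA came from whole worms, and no agent was applied. Each of 6 Agilent arrays held wild-type cDNA in Cy3 and mutant cDNA in Cy5, with 3 arrays for each mutant strain. No dye was swapped, so a dye effect of a probe adds to each of its ratios. Where nothing else is said, a value is the log2 ratio of mutant over wild type, so that −1 stands for a halving and 0 for no difference.

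ABC transporters use ATP to move substrates across membranes. A full transporter carries a pair of membrane domains and a pair of ATP-binding domains in one chain, whereas a half-transporter carries a single one of each and works as a dimer. In *C. elegans* HAF-1 exports peptides from the mitochondrial matrix and acts in the mitochondrial unfolded protein response. HAF-4 and HAF-9 work together in the membrane of intestinal granules related to lysosomes, and HAF-6 is needed for efficient RNA interference.

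The arrays carried 9 probes for the family, 2 of them for *haf-9*. The files place the *haf-6* probe (Y48G8AL.11) on chromosome I from 1162983 to 1163042 on the minus strand, the *haf-4* probe (W04C9.1) on chromosome I from 496007 to 496066, and the *haf-9* probes (ZK484.2) on chromosome I from 6093075 to 6093134 and from 6093937 to 6093996. The *haf-1* probe (C30H6.6) lies on chromosome IV from 17379138 to 17379197 and the *haf-8* probe (Y57G11C.1) on the same chromosome from 14694049 to 14694108. The *haf-2* probe (F43E2.4) lies on chromosome II from 7353746 to 7353805, and the probes of *haf-3* (F57A10.3) and *haf-7* (Y50E8A.16) on chromosome V from 15763243 to 15763302 and from 14779861 to 14779920. The genome build of these positions is not given in the sources used here, and exons were not assigned. Each probe had 1 spot per array, except that of *haf-1*, which had 10.

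The *ets-4* signal, which checks that a sample is mutant but not which allele it carries, was low on every array of both mutants, with ratios of −3.59, −2.80 and −2.72 in *ets-4(ok165)* and −3.18, −3.08 and −2.84 in *ets-4(uz1)* larvae. The position of its probe relative to the deletions was not tested. Arrays of both strains that carry the number 1 shared a slide, the *ets-4(ok165)* arrays 2 and 3 shared another slide, and so did the *ets-4(uz1)* arrays 2 and 3. The arrays numbered 2 were scanned on one day, as were those numbered 3. Between 68.5% and 72.9% of the non-control spots of an array were well above background in Cy3, and 3 to 151 spots were flagged as outliers.

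*haf-6* was the member with the largest mean difference from wild type in *ets-4(ok165)*, the strain that chose the family, and in *ets-4(uz1)* its mean was second to that of *haf-1*. In *ets-4(ok165)* larvae its ratios were −2.45, −2.32 and −2.18, and in *ets-4(uz1)* larvae they were −0.97, −0.61 and −0.15. All 6 arrays lay below 0, and the arrays of the 2 strains did not overlap. The mean was −2.32 ± 0.13 (SD, n = 3) in *ets-4(ok165)*, a 4.98-fold lower signal, and 8 of the 14768 genes had a lower mean in that strain. In *ets-4(uz1)* the mean was −0.58 ± 0.41 (SD, n = 3), or 1.49-fold lower, with a 95% interval of −1.02 to −0.13. This value did not pass the test over all genes (limma, adjusted p = 0.159). It passed when the array number entered the fit as a replicate block, the number block (limma, adjusted p = 0.0426). This block does not count as error what both arrays of a number share. Its error comes from the differences between the strains, and thus also from the arrays that chose the family. Among arrays of the same number the *ets-4(uz1)* ratio was above the *ets-4(ok165)* ratio by 1.48 on the shared slide, by 1.71 on the arrays numbered 2 and by 2.03 on those numbered 3.

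**Figure D1:**
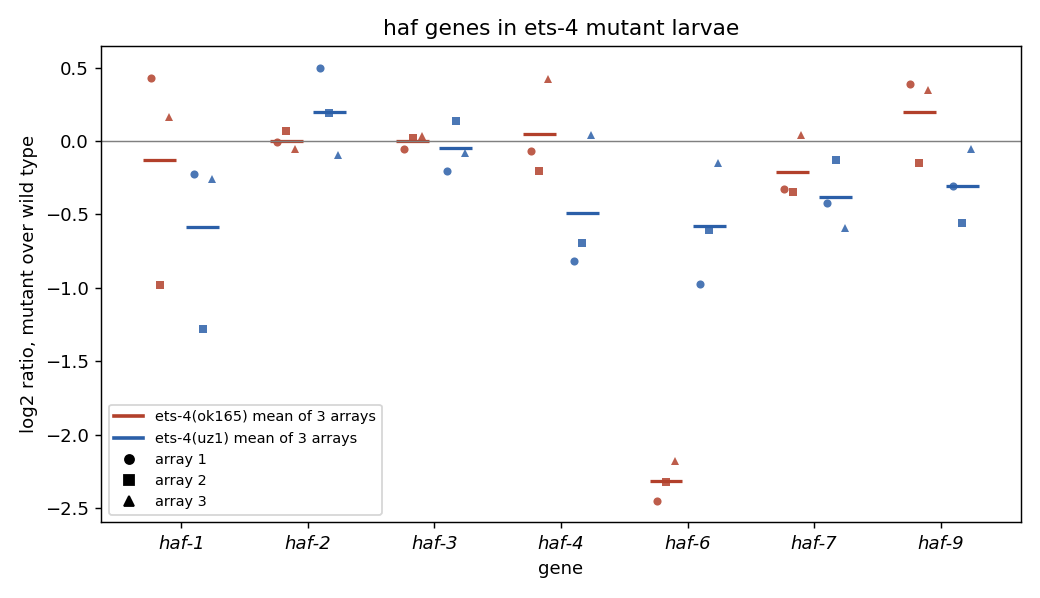
Log2 ratio of mutant over wild type (vertical axis) of the 7 *haf* genes above background (horizontal axis) on each array, red for *ets-4(ok165)* and blue for *ets-4(uz1)*, with symbols for the array number and a bar at the mean of 3 arrays. *haf-6* sits between −2.45 and −2.18 in *ets-4(ok165)*, apart from every other value shown.

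The signals behind these ratios show both dyes of the *haf-6* probe well above background on all arrays. In wild-type larvae (Cy3) the processed signal was 3013, 2976 and 2459 on the *ets-4(ok165)* arrays and 4478, 3422 and 2474 on the *ets-4(uz1)* arrays. In mutant larvae (Cy5) it was 551, 595 and 543 in *ets-4(ok165)* and 2283, 2247 and 2228 in *ets-4(uz1)*. Every *ets-4(ok165)* signal was thus below every *ets-4(uz1)* signal, and each mutant signal was below the wild-type signal of its own array. On a log2 scale relative to the 75th percentile of each array and dye, the *ets-4(uz1)* signal was nearly the same on its 3 arrays (−0.44 ± 0.05, SD, n = 3), whereas the wild-type signal on those arrays was more spread (0.15 ± 0.41, SD, n = 3).

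Wild-type signals of the members are given as differences between arrays of the same number, beside the range over all 6 arrays. A difference of 2 arrays cannot exceed that range, so these values alone do not show that same-numbered arrays were closer. For *haf-6* the relative wild-type signal on same-numbered arrays of the 2 strains differed by 0.15, 0.08 and 0.02, while it ranged from −0.30 to 0.52 over all 6 arrays. For *haf-4* the corresponding differences were 0.36, 0.05 and 0.08 in a range of 1.92 to 3.74. The wild-type range was −2.53 to −1.38 for *haf-1* and 3.53 to 4.85 for the brighter *haf-9* probe, with same-number differences of at most 0.082 and 0.12. It was narrower for *haf-2* (−0.11 to 0.19), *haf-3* (−0.53 to −0.36) and *haf-7* (−2.58 to −2.36), and there the arrays numbered 1 differed by 0.18, 0.18 and 0.21, as much or nearly as much as all 6 arrays for *haf-3* and *haf-7*. Over 12297 probes above background in both dyes on every array, the median absolute difference of the wild-type signal was 0.0811 to 0.189 between same-numbered arrays and 0.329 to 0.597 between arrays of different number, against 0.257 to 0.473 for the mutant signals of same-numbered arrays. Whether both arrays of a number were hybridized with a single wild-type RNA is not given in the sources used here, so the 2 strain comparisons may share their controls.

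**Figure D2:**
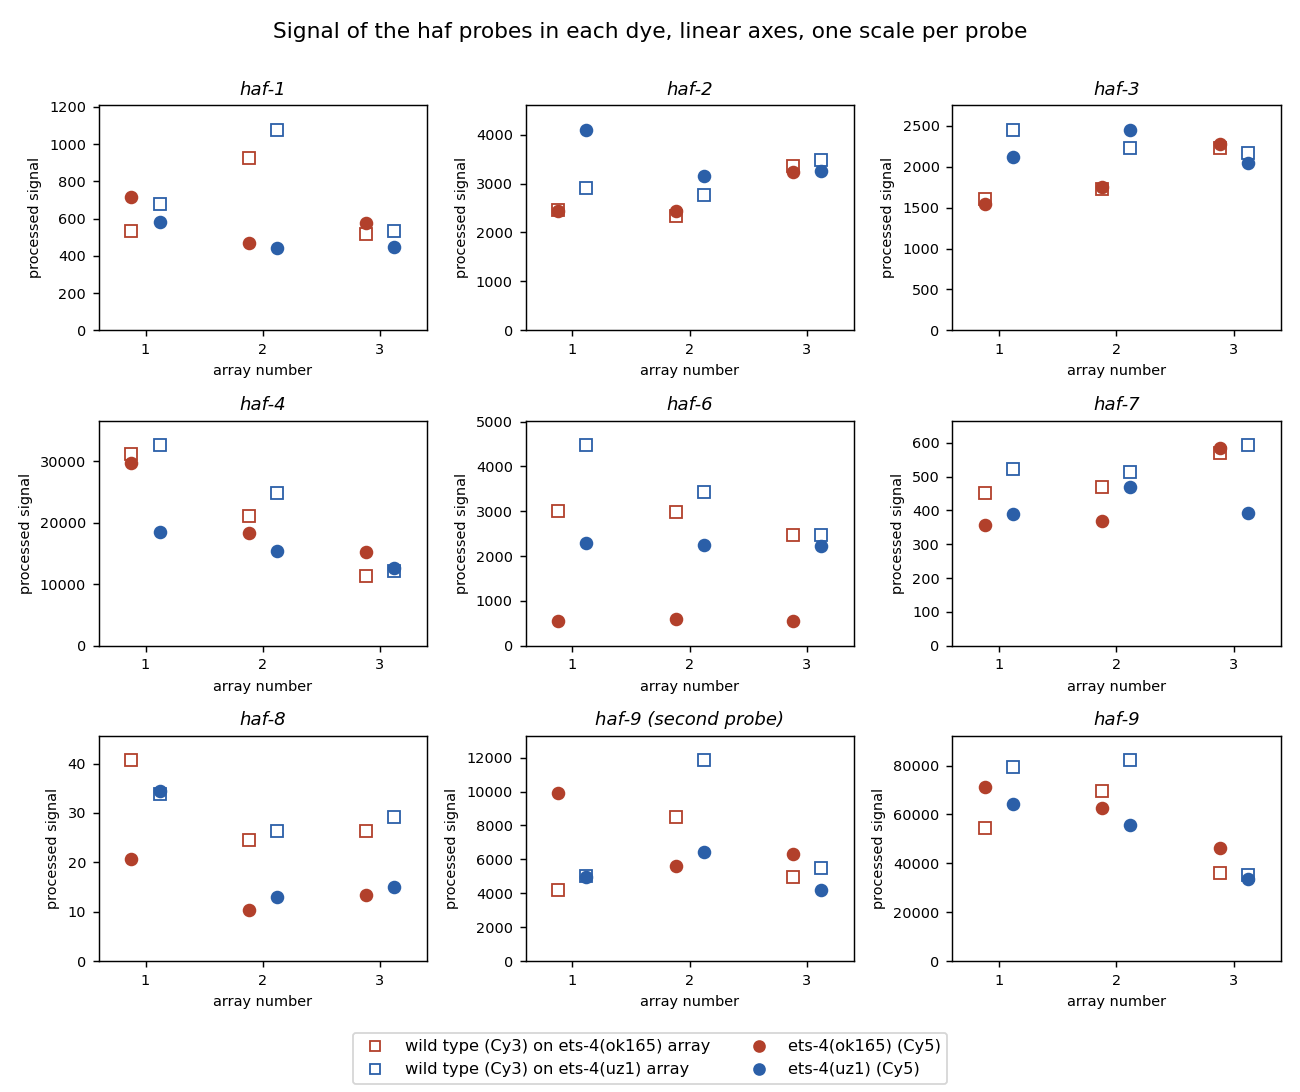
Processed signal (vertical axis, linear, a separate scale for each probe) of the 9 *haf* probes against array number, with open squares for wild type (Cy3) and filled circles for the mutant (Cy5), red for *ets-4(ok165)* arrays and blue for *ets-4(uz1)* arrays. For *haf-6* the filled red circles lie at 543 to 595 and the filled blue circles at 2228 to 2283, and for *haf-8* no signal was well above background.

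None of the 7 members tested passed the test in *ets-4(uz1)* larvae (limma, 0 of 7), where 3.53% of all genes passed, 1.33% lower and 2.2% higher. At an unadjusted p under 0.05 there was 1 member, *haf-6*, against 19.6% of all genes, and Rank Products, the test named in the study's methods, called 0 of 8 members against 2.82% of genes. With the number block 3 members passed, *haf-1*, *haf-4* and *haf-6*, all lower, in a fit that called 15.5% of all genes and 8.33% of them as lower. The mean ratio was below 0 for 6 of the 7 members, with a median of −0.38 over the members beside 0.03 over all genes, of which 6867 of 14768 had a mean below 0. All 3 *ets-4(uz1)* ratios were below 0 for 4 members, *haf-1*, *haf-6*, *haf-7* and *haf-9*, and for 19.2% of the 14589 genes with a value on every array. In *ets-4(ok165)*, the strain that chose the family, 0.0948% of all genes passed, and the median over the 7 members was 0.00. At an unadjusted p under 0.05 there were 1202 of 14768 genes in that strain. The means of the members other than *haf-6* ran from −0.21 to 0.20 there, and *haf-6* was the single member whose strains did not overlap, as was the case for 10.7% of all genes.

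*haf-1*, the mitochondrial peptide exporter, had ratios of 0.43, −0.98 and 0.16 in *ets-4(ok165)* and of −0.23, −1.28 and −0.26 in *ets-4(uz1)* larvae. The array numbered 2 was the lowest in both strains, and the groups overlapped. Its *ets-4(ok165)* mean was −0.13 ± 0.75 and its *ets-4(uz1)* mean −0.59 ± 0.60 (SD, n = 3 each). The *ets-4(uz1)* value did not pass (limma, 95% interval −1.35 to 0.17, adjusted p = 0.364; the mean was −0.24 without the array numbered 2), and it did with the number block (limma, adjusted p = 0.0332). Because 10 spots of each array carried this probe, the spread within an array could be read: the SD among the 10 spots was 0.07 to 0.12, against 0.75 and 0.60 between the arrays of a strain. On the *ets-4(ok165)* array numbered 2 all 10 spots lay between −1.10 and −0.88, and on the array numbered 1 all 10 lay between 0.29 and 0.51. The wild-type signal of *haf-1* was highest on both arrays numbered 2, at 927 and 1078, and between 516 and 679 on the others.

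*haf-4* and *haf-9*, the pair that acts in intestinal granules, were each lower in *ets-4(uz1)* than in *ets-4(ok165)* larvae on every array number, as were *haf-1* and 20.8% of all genes with a value on every array. The *haf-4* ratios were −0.07, −0.20 and 0.42 in *ets-4(ok165)* and −0.82, −0.70 and 0.04 in *ets-4(uz1)*, and the array numbered 3 was the highest in both strains. The means were 0.05 ± 0.33 and −0.49 ± 0.47 (SD, n = 3 each). The *ets-4(uz1)* value did not pass (limma, 95% interval −1.01 to 0.03, adjusted p = 0.278), and it did with the number block (limma, adjusted p = 0.0491). Same-numbered arrays differed by −0.75, −0.49 and −0.38, *ets-4(uz1)* minus *ets-4(ok165)*.

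For *haf-9* the brighter probe gave 0.39, −0.15 and 0.35 in *ets-4(ok165)* and −0.31, −0.56 and −0.06 in *ets-4(uz1)* larvae. The array numbered 2 was the lowest in each strain, as it was for *haf-1*, and the ranges of the strains overlapped. Means were 0.20 ± 0.30 and −0.31 ± 0.25 (SD, n = 3 each), and the *ets-4(uz1)* value did not pass with or without the block (limma, 95% interval −0.73 to 0.12, adjusted p = 0.395 without it and 0.121 with it). The second *haf-9* probe, listed for the transcript ZK484.2b, gave 1.24, −0.60 and 0.36 in *ets-4(ok165)* and −0.01, −0.88 and −0.40 in *ets-4(uz1)*. It ordered the *ets-4(ok165)* arrays as the first probe did and spread them further, with an SD of 0.92 against 0.30. In *ets-4(uz1)* the probes agreed on the lowest array, the one numbered 2, and differed on the highest.

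The 9 intestine markers, which include the gut-specific esterase gene *ges-1* and the gut GATA factor gene *elt-2*, were all among the genes tested and moved with the array number too. Their median ratio was 0.19, −0.45 and 0.27 on the *ets-4(ok165)* arrays and −0.28, −0.96 and −0.12 on the *ets-4(uz1)* arrays, so that the arrays numbered 2 were the lowest in both strains, as for *haf-1* and *haf-9*. The share of all genes with this order was not counted, and arrays numbered 2 deviated together across genes (r = 0.69). The median of the 5 *pmp* transporter genes described below was also lowest there (−0.45 and −0.57). *haf-4* had its lowest *ets-4(uz1)* ratio on the array numbered 1. In *ets-4(uz1)* 9 of 9 intestine markers had a mean below 0, with a median of −0.43, and none passed (limma, 0 of 9, 0 by Rank Products, 1 at an unadjusted p under 0.05, 2 lower with the number block). The summed signal of the 9 markers, relative to the 75th percentile of array and dye, was 319 to 712 in wild type, 336 to 509 in *ets-4(ok165)* and 261 to 373 in *ets-4(uz1)*. Their part in the ratios of the *haf* genes was not tested, and in RNA of whole larvae a smaller share of intestine and less RNA per intestinal cell cannot be told apart. Of 52 markers of 7 tissues, 1 passed in *ets-4(uz1)*, the epidermal collagen gene *dpy-7*, which rose (mean 1.63, limma, adjusted p = 0.032). In *ets-4(uz1)* 12 of 13 germ line markers (median 0.56), 7 of 7 body wall muscle markers (median 0.45, 4 higher with the number block) and 5 of 5 epidermis markers (median 0.86) lay above 0. The median there was 0.17 for 4 sperm markers, 0.03 for 6 pharynx markers (3 below 0) and 0.02 for 8 neuron markers (3 below 0). In *ets-4(ok165)* the median was 0.74 for the 6 pharynx, 0.42 for the 5 epidermis and 0.17 for the 8 neuron markers. It was 0.07 for the body wall muscle, −0.04 for the sperm and −0.16 for the germ line markers there. The part of these tissue lists in the *haf* ratios was not tested.

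**Figure D3:**
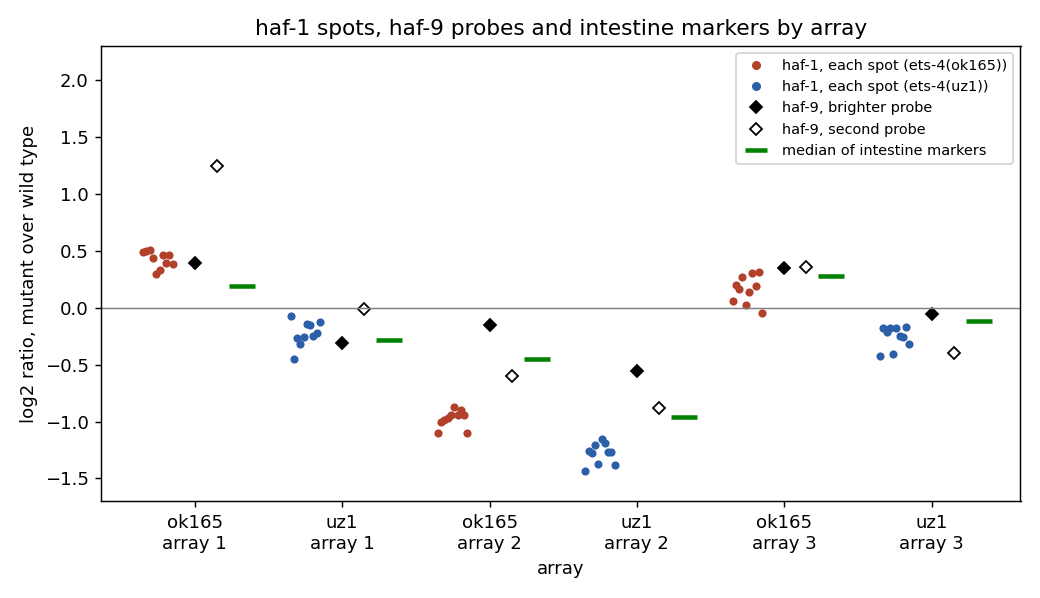
Log2 ratio of mutant over wild type (vertical axis) on each array (horizontal axis, paired by array number) for the 10 *haf-1* spots (small points), the 2 *haf-9* probes (filled diamond for the brighter, open for the second) and the median of 9 intestine markers (green bar). The *haf-1* spots cluster within each array and are lowest on both arrays numbered 2, where the marker medians are −0.45 and −0.96.

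*haf-2* and *haf-3* had means nearest to the wild-type level in *ets-4(uz1)*. *haf-2* had ratios of −0.01, 0.07 and −0.05 in *ets-4(ok165)* and 0.50, 0.19 and −0.09 in *ets-4(uz1)*, which overlap. It was the member with a mean above 0 in *ets-4(uz1)*, 0.20 ± 0.30 (SD, n = 3), and did not pass (limma, 95% interval −0.18 to 0.59, adjusted p = 0.534). *haf-3* had ratios of −0.06, 0.02 and 0.03 in *ets-4(ok165)* and −0.20, 0.14 and −0.08 in *ets-4(uz1)*, again overlapping. Its *ets-4(uz1)* mean was −0.05 ± 0.17 (SD, n = 3; limma, 95% interval −0.39 to 0.29, adjusted p = 0.874), and without the *ets-4(uz1)* array numbered 1 it was 0.027. For these 2 genes the wild-type signal was also among the steadiest of the family.

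*haf-7* had ratios of −0.33, −0.35 and 0.04 in *ets-4(ok165)* and −0.42, −0.13 and −0.59 in *ets-4(uz1)* larvae. Its strains overlapped, and the deviations of same-numbered arrays had the same sign for 1 of 3 numbers, as for *haf-2*. The count was 2 of 3 for *haf-3* and *haf-9* and 3 of 3 for *haf-1*, *haf-4* and *haf-6*. Its share over all genes was not counted, and same-numbered arrays deviated together across genes (r = 0.51, 0.69 and 0.29). The *haf-7* mean in *ets-4(uz1)* of −0.38 ± 0.23 (SD, n = 3) did not pass (limma, 95% interval −0.78 to 0.01, adjusted p = 0.265). With the block it did not pass either (limma, adjusted p = 0.143). *haf-8* was not well above background in either dye on any array, with processed signals of 24.4 to 40.6 in wild type and 10.4 to 34.4 in the mutants. No ratio or fold is given for it.

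The low *haf-6* ratios were not shared by the nearest tested genes around it. Coding genes that were not tested were passed over, among them the one next to *haf-6* on the side of *nsun-2*. The 3 nearest tested genes on one side in the order of RefSeq genes (assembly WBcel235) were Y48G8AL.7, the ribosomal protein gene *rpl-17* and the clathrin adaptor gene *aps-3*, and on the other side *nsun-2*, *herc-1* and Y48G8AL.12. Their means ran from −0.37 for *nsun-2* to 0.20 for *rpl-17* in *ets-4(ok165)* and from −0.05 for *herc-1* to 0.42 for Y48G8AL.7 in *ets-4(uz1)*. The lowest single ratio among the 6 was −0.78, of Y48G8AL.12 on the first *ets-4(ok165)* array, above every *ets-4(ok165)* value of *haf-6*. None of the 6 passed in either strain (limma, 0 of 6 at an unadjusted p under 0.05 in *ets-4(ok165)* and 1 of 6 in *ets-4(uz1)*). The 14 nearest tested neighbors of the other members, 1 on each side, had means of −0.80 to 0.29 in *ets-4(ok165)* and −0.84 to 0.81 in *ets-4(uz1)*, and none passed (limma, 1 of 14 at an unadjusted p under 0.05 in each strain).

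**Figure D4:**
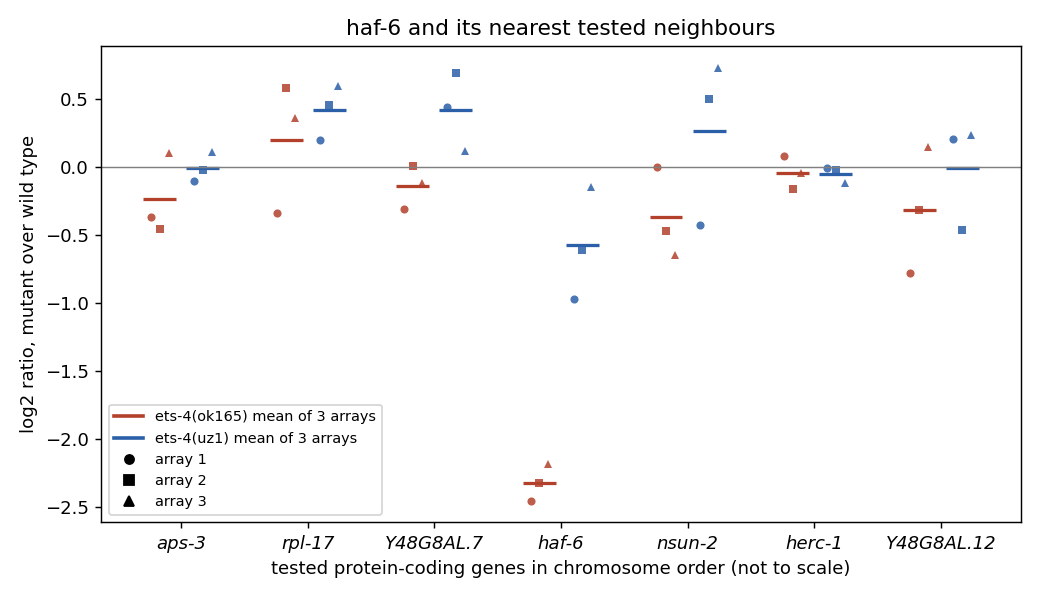
Log2 ratio of mutant over wild type (vertical axis) of *haf-6* and of the 3 nearest tested genes on each side in chromosome order (horizontal axis, not to scale), red for *ets-4(ok165)* and blue for *ets-4(uz1)*, with symbols for the array number and a bar at the mean of 3 arrays. No neighbor has a ratio below −0.78.

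The genes whose 6 ratios were nearest to those of *haf-6*, by the root mean square difference over the arrays, were the chemoreceptor family gene *srh-206* (0.677), the nuclear hormone receptor gene *nhr-173* (0.766), the lysozyme gene *ilys-2* (0.796), the fatty acid desaturase gene *fat-7* (0.822) and the lysozyme gene *lys-5* (0.844). Over 14588 genes the median of this distance was 1.75. The nearest gene, *srh-206*, had ratios of −1.85, −1.48 and −1.50 in *ets-4(ok165)* and −1.42, −1.59 and −0.37 in *ets-4(uz1)*. The means of the 5 genes ran from −1.61 for *srh-206* to −1.28 for *lys-5* in *ets-4(ok165)*, all above that of *haf-6*. The other 6 members of the family lay at distances of 1.53 to 1.81, and a gene with a ratio of 0 on every array would lie at 1.71. The 5 genes were picked by these same ratios, so their likeness to *haf-6* is no separate result.

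Other ABC transporters were compared next, beginning with the half-transporters. Of 16 further half-transporter genes 15 were tested: *hmt-1*, 5 *pmp* genes of the ABCD subfamily, whose relatives in mammals are peroxisomal, and 9 *wht* genes of the ABCG subfamily. None passed in *ets-4(uz1)* (limma, 0 of 15, 0 by Rank Products, 4 at an unadjusted p under 0.05, 3 with the number block, all lower) or in *ets-4(ok165)* (limma, 0 of 15, 0 by Rank Products, 0 at an unadjusted p under 0.05). Their median in *ets-4(uz1)* was −0.23, between −0.38 for the *haf* genes and 0.03 for all genes, and their means in *ets-4(ok165)* ran from −0.61 to 0.11. The *pmp* genes were below 0 in *ets-4(uz1)* in 5 of 5 cases, with a median of −0.35, and the *wht* genes in 2 of 9, with a median of 0.13.

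*pmp-5* had ratios of 0.01, −1.01 and −0.31 in *ets-4(ok165)* and −1.13, −1.34 and −0.68 in *ets-4(uz1)* larvae. All *ets-4(uz1)* arrays were below 0, and the mean of −1.05 ± 0.34 (SD, n = 3) did not pass (limma, adjusted p = 0.0595) except with the number block (limma, adjusted p = 0.0209) or without the *ets-4(ok165)* array numbered 2 (limma, adjusted p = 0.0362). *hmt-1*, which encodes a half-transporter needed for heavy metal tolerance, had ratios of −0.49, −0.42 and −0.17 in *ets-4(ok165)* and −1.12, −0.68 and −0.26 in *ets-4(uz1)*. Like those of *haf-6*, its arrays numbered 1 were the lowest and those numbered 3 the highest in each strain. Its *ets-4(uz1)* mean was −0.69 ± 0.43 (SD, n = 3; limma, adjusted p = 0.117 and, with the number block, 0.0299).

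Among all 48 other ABC transporter genes tested 1 passed in *ets-4(uz1)* (limma, 1 by Rank Products, 13 at an unadjusted p under 0.05, and with the number block 8 lower and 2 higher). It was the P-glycoprotein gene *pgp-10*, a full transporter, whose ratios were 2.01, 2.13 and 1.62 in *ets-4(uz1)* and 1.16, 0.83 and −0.07 in *ets-4(ok165)*. It rose 3.78-fold in *ets-4(uz1)* (1.92 ± 0.27, SD, n = 3; limma, adjusted p = 0.0154), and in *ets-4(ok165)* its value was 0.64 ± 0.64 (SD, n = 3; limma, adjusted p = 0.592). The difference between the strains did not pass (1.28, limma, adjusted p = 0.436). The call was lost when any 1 *ets-4(uz1)* array was left out (limma, adjusted p of 0.1005, 0.0871 and 0.068 without arrays 1, 2 and 3) and without the signal filter (limma, adjusted p = 0.0648). With slide as a fixed block it was lost too (limma, adjusted p = 0.322). Apart from the slide of the arrays numbered 1, each slide held a single strain, so that fit cannot judge the call. The 13 P-glycoprotein genes tested had a median of −0.43 in *ets-4(uz1)*, near that of the *haf* genes, with 8 of 13 below 0. Their means there ran from −1.34 to 1.92, with 7 at an unadjusted p under 0.05 (limma). With the number block 5 were lower and 1 was higher, and their median in *ets-4(ok165)* was 0.12. *mrp-2*, of the ABCC subfamily, had ratios of 0.36, 0.56 and 0.12 in *ets-4(ok165)* and 0.38, 0.77 and 0.78 in *ets-4(uz1)*, with a mean of 0.64 ± 0.23 (SD, n = 3; limma, adjusted p = 0.0934 and, with the number block, 0.0392). In *ets-4(ok165)* none of the 48 passed (limma, 0 by Rank Products, 5 at an unadjusted p under 0.05, beside 1202 of all 14768 genes).

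**Figure D5:**
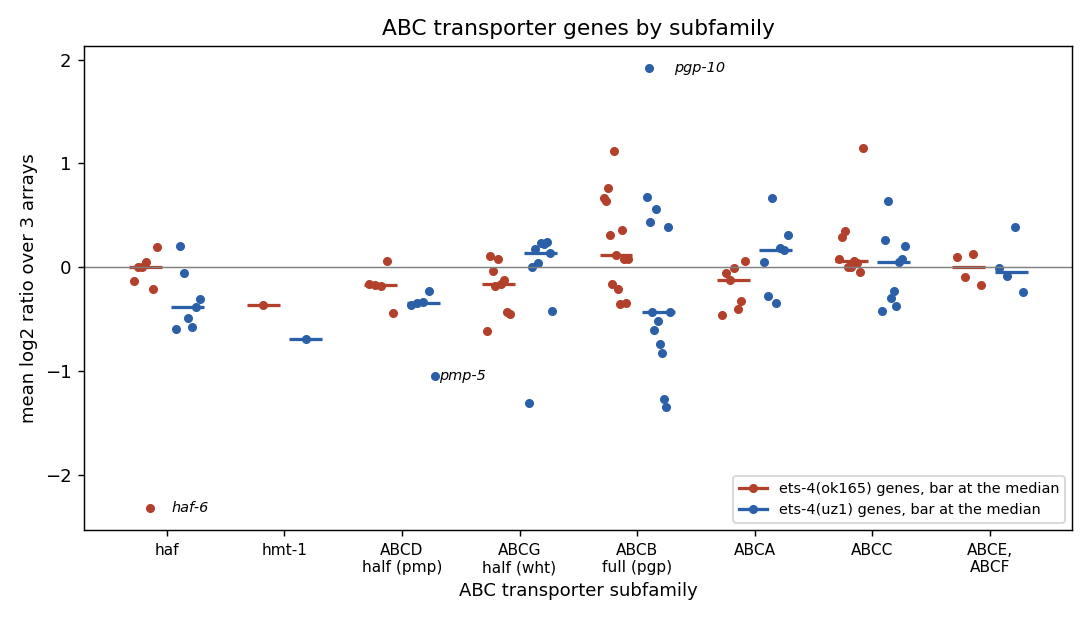
Mean log2 ratio of mutant over wild type over 3 arrays (vertical axis) of each ABC transporter gene, by subfamily (horizontal axis), red for *ets-4(ok165)* and blue for *ets-4(uz1)*, with a bar at the median of each group. *haf-6* in *ets-4(ok165)*, at −2.32, is the lowest mean shown, and *pgp-10* in *ets-4(uz1)*, at 1.92, the highest.

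Genes that work in the same processes as *haf-1*, *haf-4*, *haf-6* and *haf-9* were also counted. Of 8 genes of the mitochondrial unfolded protein response none passed in *ets-4(uz1)* (limma, 0 of 8, 0 by Rank Products, 4 at an unadjusted p under 0.05, 2 lower with the number block). All 8 had a mean below 0 there, from −0.77 for the mitochondrial chaperone gene *hsp-6* to −0.14 for the mitochondrial protease gene *lonp-1*, with a median of −0.39. The medians of the *haf* genes (−0.38), intestine markers (−0.43), P-glycoprotein genes (−0.43) and *pmp* genes (−0.35) were near it. Over all genes in *ets-4(uz1)* 19.6% had an unadjusted p under 0.05 and 8.33% were lower with the number block (limma). Of 28 genes of RNA interference none passed (limma, 0 of 28, 0 by Rank Products, 4 at an unadjusted p under 0.05, 2 lower and 2 higher with the number block). Their *ets-4(uz1)* means ran from −0.58 to 0.65 around a median of 0.11, and in *ets-4(ok165)*, where *haf-6* was lowest, their means ran from −0.54 to 0.27 around a median of −0.02. Of 11 genes of gut granules none passed (limma, 0 of 11, 0 by Rank Products, 1 at an unadjusted p under 0.05, 1 lower with the number block), with a median of −0.10 in *ets-4(uz1)*. In *ets-4(ok165)* none of these 3 lists held a gene that passed (limma, 0 by Rank Products, 0 at an unadjusted p under 0.05).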

How the data were processed

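Wild-type (Cy3) and mutant (Cy5) RNA of whole late L4 larvae was hybridized to 6 Agilent arrays, 3 for each mutant, which the methods call independent repeats. The authors extracted the intensity of each spot with Agilent Feature Extraction (versions 8.5.1.1 and 9.1.3.1, per the file headers). The deposited log10 ratios (mutant over wild type) had been lowess-normalized within each array by the authors, and the deposited log2 ratios of the series-wide table hold these values per probe.

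The log10 ratios were converted to log2, outlier-flagged spots left out and spots of a probe averaged. Probes had to be well above background in Cy3 or Cy5 on 3 or more of 6 arrays, and a gene was represented by its brightest such probe. Of 18877 genes, 18124 matched the RefSeq table (WBcel235), which gave symbols and gene order. A mean per strain was fitted over all 6 arrays with limma (3.58.1, in R 4.3.3), with Benjamini-Hochberg adjustment over 14768 genes and 0.05 as threshold. Where nothing says that repeats came from separate cultures, p-values measure the spread between these arrays. Precision is limited by the 3 arrays per strain. Rank Products was run with 100 permutations and a probability of false prediction under 0.1.

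Same-numbered arrays deviated together from their strain means (r across genes = 0.51, 0.69 and 0.29 for numbers 1, 2 and 3). The number was therefore also run as a replicate block, and both values are given for members where it changed the call. Calls without the block are the main ones. Against wild type the block leaves out of the error what both arrays of a number share, which may include a common wild-type RNA. With it the standard error of *haf-1* in *ets-4(uz1)* was 0.111, against 0.322 without it. Other normalizations, filters, probe rules, slide and scan as blocks, and each array left out were tried. The fits were also run on simulated data with independent noise on each array. Those data lack the shared deviation of same-numbered arrays, so they cannot judge the block. The members, gene lists and tests were chosen with earlier results of these data known. Genes named besides the members are *ets-4*, genes of the related lists that passed in either strain (filled up to 4 by the smallest p in *ets-4(uz1)*), the nearest tested neighbors and the 5 genes nearest to *haf-6*. *ges-1*, *elt-2*, *dpy-7*, *hsp-6* and *lonp-1* were named after their values were seen.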

Additional observations from a re-analysis of the deposited data

How the results depend on the processing

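Over 7 *haf* genes, 0 passed in *ets-4(uz1)* under every setting tried, the 6 fits without 1 array included (0 to 0), except with the replicate block, the array number, which called 3. In *ets-4(uz1)* no *haf* gene changed sign under the settings run other than *haf-3*, which ran from −0.14 to 0.027 with 1 array left out and was above 0 without the first *ets-4(uz1)* array. *haf-6* in *ets-4(ok165)* was −1.96 with normexp and loess. Its value in *ets-4(uz1)* ran from −0.79 to −0.38.

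Counts over all genes moved more. In *ets-4(uz1)* the main count of 522 became 128 without the signal filter, 2294 with the replicate block (1230 lower and 1064 higher, against 197 and 325) and 0 with slide as a fixed block, an alternative chosen after seeing the data, and ran from 60 to 594 with 1 array left out. In *ets-4(ok165)* the count of 14 became 9 with normexp and loess (8 lower and 1 higher, against 10 and 4), 1 without the filter, 49 with the replicate block, 0 with slide as a fixed block, 1 on the strain's own arrays and 133 by Rank Products, and ran from 1 to 11 with 1 array left out. For the strain difference 24 became 7 with normexp and loess, 1 without the filter, 92 with the replicate block, 553 with scan as a random block and 0 with slide as a fixed block, and ran from 0 to 18. The cause of these moves was not tested. Apart from the slide of the arrays numbered 1, each slide held a single strain. The fit with slide as a fixed block therefore cannot judge the calls. The replicate block changed no other call of a *haf* gene. Fold changes of *haf-8* are limited by its signal.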
